A study of Mus musculus with 46 samples.

Results

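Semaphorins, plexins, neuropilins, ephrins and Eph receptors were followed across 7 types of GABAergic neuron of the mouse frontal cortex. Members were taken by symbol (Sema with a digit, Plxna to Plxnd, Nrp1, Nrp2, Epha or Ephb with a digit, Efna or Efnb with a digit) with a total of at least 50 counts over all cells, so the rule uses symbols and totals and no difference between types. This gave 46 genes of 23335 in the table, namely 17 semaphorins, 9 plexins, 2 neuropilins, 13 Eph receptors and 5 ephrins. The other 7 symbols matched, Efna1, Efna3, Efna4, Epha2, Sema3f, Sema3g and Sema6c, had fewer counts and are not described further. A minimum of 20 counts would have kept 49 genes and a minimum of 100 counts 43.

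Single red fluorescent neurons were isolated from dissected and triturated brain slices, and RNA of 584 cells was amplified and sequenced in 46 libraries of 7 to 16 cells each. The title of every sample gives the brain as WT. All groups carried a reporter line (Ai65 or Ai14) and no experimental treatment, and each was defined by the driver alleles named on its label. Martinotti cells (62 cells) came from Sst-Flp with CR-Cre and Ai65, layer 2/3, from females aged 35 days, with CR as the label writes it. Interneuron-selective cells (63 cells) came from Vip-Flp with CR-Cre and Ai65, layer 2/3, from females aged 32 days. CCK basket cells (64 cells) came from Vip-Flp with CCK-Cre and Ai65, layers 2 and 3, from males aged 39 and 40 days. PV basket cells (127 cells) came from Pv-iresCre with Ai14, all layers, from males aged 81 and 83 days and females aged 58 and 83 days. Upper chandelier cells (80 cells) came from Nkx2.1-CreER with Ai14, at the border of layer 1 and layer 2/3 in infralimbic and prelimbic cortex, from females labelled 50 days (animal 13) and 40 or 58 days (animal 14, whose 58-day library is labelled Ai15). Deep chandelier cells (52 cells) came from Nkx2.1-CreER with Ai14, layers 5 and 6, from males aged 34 days. Long-projecting cells (136 cells) came from Sst-Flp with Nos1-Cre and Ai65, with no layer given, from males aged 28 and 29 days. Induction of the CreER line with tamoxifen on embryonic day 17.5 stands on the label of every sample, and it concerns the chandelier groups, the ones with that driver.

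Semaphorins are secreted or membrane-bound guidance cues. Class 3 semaphorins are secreted and act mostly through a neuropilin, which binds the ligand, and a class A plexin, which carries the signal into the cell, whereas the other vertebrate classes bind plexins directly. Ephrins are cell-bound ligands, held by a lipid anchor in the A class and by a transmembrane segment in the B class, and Eph receptors are receptor tyrosine kinases that can signal in both directions at a contact. In developing cortex these systems steer axons and migrating interneurons, and in the adult they act at synapses.

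The unit of comparison was the animal. The labels number 18 animals, where the series text speaks of 4. Of 190 pairs of libraries of the same type, 8 agree nearly within sampling noise, with a chi-square per gene of 1.22 to 1.72 against 5.38 to 114 in all others. All 8 pair a PV basket library labelled male with one labelled female, and 73.2% of PV basket cells carried counts of both the female-specific Xist and the Y-linked Eif2s3y, against 1.75% of other cells. By their labels, both libraries of each such pair carry the same index sequence on neighbouring lanes of the same flow cell. Whether each pair is a single library read on both lanes was not tested. The pairs of PV basket animals 7 with 8 and 9 with 10 were each treated as a single replicate, which left 16 replicates (n = 4 in long-projecting cells, n = 2 in each other type). The upper chandelier libraries labelled animal 14 give ages of 40 and 58 days and were summed as 1 replicate. Whether they came from a single mouse was not tested. Libraries held 530927 to 4568242 counts and cells a median of 98298, from 42258 in interneuron-selective to 155732 in CCK basket cells. Cells of 1 library differed by little more than sampling noise, with a chi-square per gene and degree of freedom of 1.01 to 1.48 and a median of 1.13, so cells were never used as replicates. All 46 libraries drew on the same 16 cell barcodes, and none repeated a barcode within itself.

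Driver genes were checked first against the labels. Sst reached at least 1222 CPM (counts of a gene per 1000000 counts of the sum) in each Martinotti and long-projecting replicate and at most 1.77 CPM in the others, and Pvalb was 1023 ± 92.4 CPM (SD, n = 2) in PV basket cells. Calb2, the gene of calretinin, was 438 ± 69.5 CPM (SD, n = 2) in interneuron-selective and 103 ± 11.4 CPM (SD, n = 2) in Martinotti cells, the types with CR-Cre. It was 185 ± 121 CPM (SD, n = 4) in long-projecting cells, which carry no CR-Cre. Nkx2-1 was at 76.4 ± 4.22 CPM (SD, n = 2) in upper chandelier cells, at 29.5 ± 19.7 CPM (SD, n = 2) in the deep ones and at 18.9 ± 2.76 CPM (SD, n = 2) in CCK basket cells. Deep chandelier libraries 1 to 4 held 15.0, 16.1, 60.2 and 16.5 CPM of Nkx2-1 and 0, 553, 172 and 165 CPM of Pvalb. Pairs of these libraries had a chi-square per gene of 72.7 to 114, the highest of any type. The library labelled deep chandelier 4 held 1918 CPM of Vip and 1375 CPM of Cck, and the library labelled upper chandelier 1 held 374 CPM of Vip, whereas the other 7 chandelier libraries held 0 to 2.75 CPM of Vip. Summed over 8 oligodendrocyte markers, interneuron-selective library 3 held 3748 CPM and long-projecting library 2 held 4882 CPM, against at most 264 CPM in any other library. Flow cell, sex and age differ between most types and cannot be told apart from type, except that Martinotti and interneuron-selective cells, and upper chandelier and long-projecting cells, each shared a flow cell. Fewer cells of a kind within a library and less RNA per cell cannot be told apart in these sums.

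Guidance genes were called different between types at a higher share than all genes tested. In a joint test for any difference between the 7 types (edgeR quasi-likelihood test, Benjamini-Hochberg adjusted p under 0.05 over 15533 genes), 18 of the 45 members that passed the filter on low counts were called, a share of 40.0%, and the share over all genes was 25.0%. Plxnd1 did not pass the filter. The called members were Sema3a, Sema3c, Sema5a, Sema5b, Sema6a, Sema6d, Plxna2, Plxnb2, Plxnb3, Plxnc1, Nrp1, Epha1, Epha3, Epha5, Epha7, Ephb2, Efna2 and Efnb3. By family these were 6 of 17 semaphorins, 4 of 8 plexins, 1 of 2 neuropilins, 5 of 13 Eph receptors and 2 of 5 ephrins, and none of the 6 class 4 semaphorins was among them. Each of the 16 replicates, and each of the 30 libraries of types other than PV basket, was left out in turn in 46 further fits. The share over all genes is not given for these fits. Without both oligodendrocyte-rich libraries, Sema6a (adjusted p = 0.110), Plxnc1 (0.0917), Epha1 (0.0673), Plxnb2 (0.0587) and Efna2 (0.0523) were not called, Plxnb3 fell under the filter on low counts, and Efnb1 and Sema6b were called in addition. Plxnb3 did not pass with DESeq2 (adjusted p = 0.0668), Plxnb2 with DESeq2 size factors in edgeR (0.0502), or Plxnc1 with no filter on low counts (0.0513). Sema3a, Sema3c, Sema5a, Sema5b and Plxna2 passed the joint test in all 46, and the count ranged from 9 without PV basket animals 7 and 8 to 21 without deep chandelier animal 11.

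**Figure D1:**
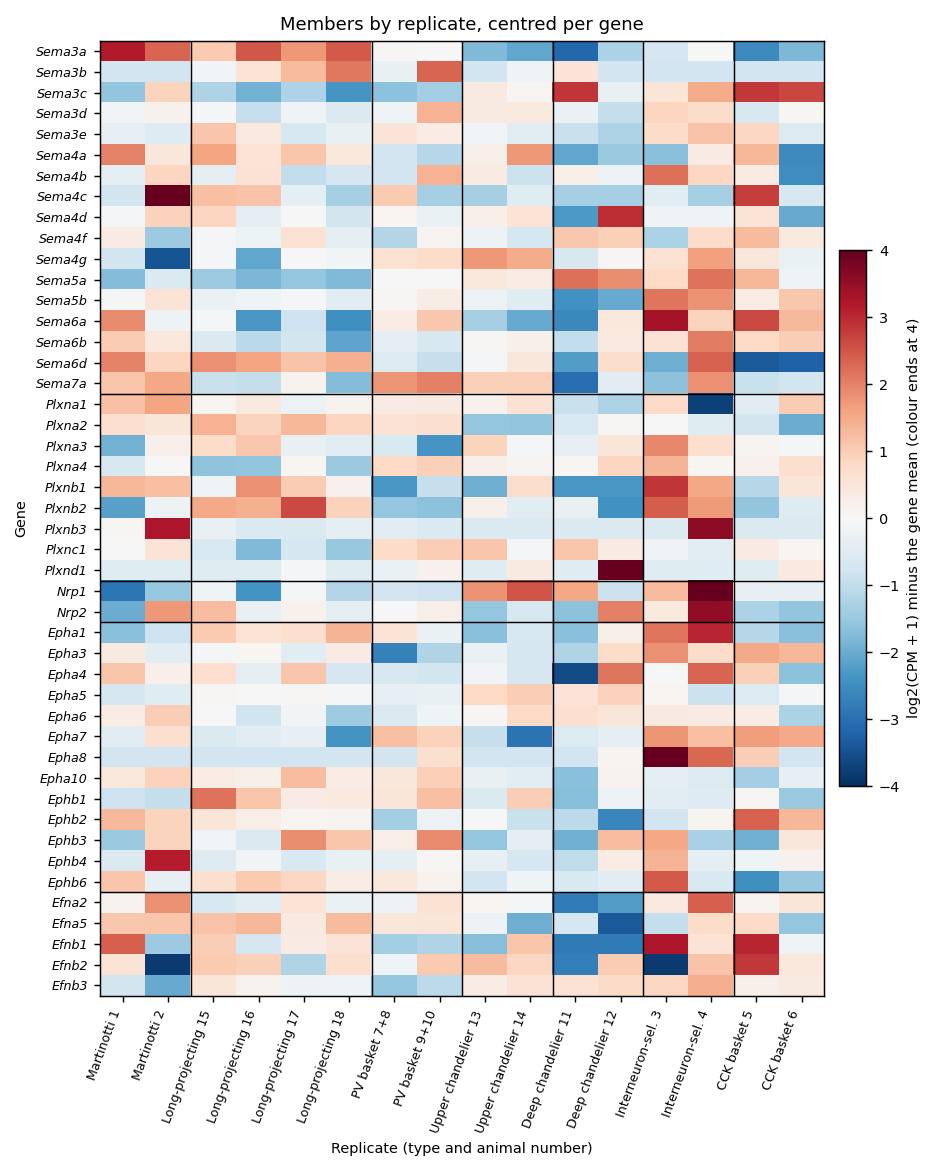
Heat map of the 46 members (vertical axis) in the 16 replicates (horizontal axis, by type and animal number), where the colour is log2(CPM + 1) minus the mean of the gene over replicates and ends at 4. Sema3a is red in both Martinotti and all 4 long-projecting replicates, and interneuron-selective columns hold the highest type mean of 18 members, a count not made over all genes.

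Each type was then compared with the mean of the other 6 on the log2 scale in the same fit, and these comparisons share their samples. Differences on the log2 scale are given ± a standard error. It was computed as the absolute log2 difference divided by the square root of the quasi-likelihood F statistic. Interneuron-selective cells had 9 called members, all higher, where 10.0% of all genes were called (5.73% higher and 4.29% lower). The median log2 difference of the 45 members was 0.91 there and that of all genes -0.03. Their mean level was the highest of the 7 types for 18 of the 46 members and the lowest for 0, and these cells also had the lowest counts per cell. This count was not made over all genes, so it is not read as particular to the members. Long-projecting cells had 11 called members, 6 higher and 5 lower (13.1% of all genes called, 9.71% higher and 3.40% lower, median 0.02 in members and 0.10 in all genes). Deep chandelier cells had 7, with 3 higher and 4 lower, a share below that of all genes (15.6% against 19.1%, of which 12.3% higher and 6.79% lower), and their median was -0.33 in members and -0.08 in all genes. They had the lowest type mean for 12 of the 46 members, again with no such count over all genes. CCK basket cells had 6 called members, 4 higher and 2 lower (6.30% of all genes called, 5.22% higher and 1.08% lower), with a median of 0.01 in members and 0.04 in all genes. Martinotti cells had 2 called members, both higher (5.60% of all genes called, 3.91% higher and 1.69% lower, median 0.13 in members and 0.01 in all genes). Upper chandelier cells had 1 higher and 1 lower (1.91% of all genes called, 1.56% higher and 0.341% lower, median -0.21 in members and 0.05 in all genes). PV basket cells had 1 lower (3.89% of all genes called, 2.78% higher and 1.11% lower, median 0.14 in members and 0.09 in all genes). In all, 23 members were called in at least 1 of these comparisons. Neither this total nor the next one was made over all genes, so neither is read as particular to the members. Of 56 calls in all single contrasts, 11 held whichever replicate or library was left out.

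Sema3a, a secreted class 3 semaphorin that repels axons through Nrp1 and class A plexins, was high in both types defined by Sst-Flp. Its replicates were at 169.7 and 93.2 CPM in Martinotti and at 37.6, 105, 61.0 and 102 CPM in long-projecting cells. They were at 18.5 and 17.7 CPM in PV basket, 10.8 and 17.9 CPM in interneuron-selective, 4.54 and 3.47 CPM in upper chandelier, 1.11 and 6.77 CPM in deep chandelier and 2.20 and 4.40 CPM in CCK basket cells. All 6 replicates of these types lay above all 10 others, with no overlap. The log2 difference from the mean of the other types was 3.65 ± 0.44 in Martinotti (adjusted p = 0.000231) and 2.90 ± 0.38 in long-projecting cells (adjusted p = 0.000177), and both calls passed in all 46 leave-one-out fits. On the shared flow cell, Martinotti cells exceeded interneuron-selective cells by 3.32 ± 0.80 on the log2 scale (adjusted p = 0.0384), which passed in 28 of 46 leave-one-out fits, with an adjusted p of up to 0.170 without interneuron-selective animal 3. Upper chandelier cells were lower than long-projecting cells on theirs (log2 difference -4.44 ± 0.81, adjusted p = 0.00559), which did not pass without upper chandelier animal 13 (adjusted p = 0.0826) or without upper chandelier animal 14 (adjusted p = 0.130).

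Plxna2, a class A plexin and so a signalling receptor for class 3 and class 6 semaphorins, was highest in long-projecting cells. There its replicates were at 245, 173, 231 and 167 CPM. Martinotti replicates were at 147 and 131 CPM and PV basket replicates at 139 and 144 CPM. All 4 long-projecting values lay above those of every other type, Martinotti and PV basket cells came next without a gap between them, and deep chandelier, interneuron-selective and CCK basket replicates spread over 22.6 to 94.8 CPM. Upper chandelier cells had 30.9 and 30.4 CPM. The log2 difference was 1.57 ± 0.21 in long-projecting cells (adjusted p = 0.000227), which passed in all 46 leave-one-out fits. It was -1.80 ± 0.35 in upper chandelier cells (adjusted p = 0.0200), which passed in 40 of 46 leave-one-out fits, with an adjusted p of up to 0.272 without CCK basket library 4, and between these 2 types on the shared flow cell it was -2.89 ± 0.40 (adjusted p = 0.000927), which did not pass without CCK basket library 4 (adjusted p = 0.0505). In CCK basket cells (55.2 and 22.6 CPM) the difference of -1.21 ± 0.34 (adjusted p = 0.0478) passed in 11 of 46 leave-one-out fits, with an adjusted p of up to 0.392 without CCK basket animal 6, and did not pass with no filter on low counts (adjusted p = 0.0634) or without both oligodendrocyte-rich libraries (adjusted p = 0.0514).

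Class 5 semaphorins, which are transmembrane proteins with thrombospondin repeats, went in opposite directions in deep chandelier cells. Sema5a was at 165 and 131 CPM in deep chandelier, 61.5 and 161 CPM in interneuron-selective and 89.7 and 31.6 CPM in CCK basket cells. It was at 47.9 and 43.8 CPM in upper chandelier, 34.5 and 35.7 CPM in PV basket, 9.80 and 23.0 CPM in Martinotti and 12.1, 9.11, 11.4 and 9.72 CPM in long-projecting cells. The deep chandelier values overlapped those of interneuron-selective cells and no others, and long-projecting cells overlapped Martinotti cells at the low end. The fitted log2 difference was 2.33 ± 0.37 in deep chandelier (adjusted p = 0.00106) and -2.28 ± 0.39 in long-projecting cells (adjusted p = 0.00144), and both calls passed in all 46 leave-one-out fits. In interneuron-selective cells it was 1.40 ± 0.40 (adjusted p = 0.0384), which passed in 31 of 46 leave-one-out fits, with an adjusted p of up to 0.727 without interneuron-selective animal 4.

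Sema5b was highest in interneuron-selective cells, at 188 and 149 CPM, and lowest in deep chandelier cells, at 7.03 and 9.73 CPM. The other 5 types spread over 29.6 to 90.2 CPM, so neither extreme overlapped with any other type. Relative to the mean of the other types, the log2 difference was 2.06 ± 0.28 in interneuron-selective (adjusted p = 0.000783) and -2.52 ± 0.41 in deep chandelier cells (adjusted p = 0.00126), and both calls passed in all 46 leave-one-out fits. The deep chandelier value of Sema5b was low in both animals, including animal 12, which holds the library with Vip.

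Sema3a and Plxna2 were both higher in long-projecting cells, and Sema5a and Sema5b parted in deep chandelier cells, so the sequence before the start of each of these genes is shown for comparison. The 250 bases upstream of the RefSeq start, 5′ to 3′ on the gene's strand (plus for all 4), were read from a promoter table of GRCm38.p6, matched by symbol, while the counts were made on mm9. The windows lie at chr5:13396534-13396783 (Sema3a), chr1:194619579-194619828 (Plxna2), chr15:32244563-32244812 (Sema5a) and chr16:35541112-35541361 (Sema5b). Capitals mark CANNTG, the E-box bound by basic helix-loop-helix factors, which reads the same on both strands.
Sema3a: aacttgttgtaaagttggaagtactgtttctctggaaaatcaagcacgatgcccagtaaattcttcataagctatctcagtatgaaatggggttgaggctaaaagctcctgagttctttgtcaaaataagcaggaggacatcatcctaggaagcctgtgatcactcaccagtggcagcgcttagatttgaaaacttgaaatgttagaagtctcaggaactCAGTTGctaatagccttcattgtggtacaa
Plxna2: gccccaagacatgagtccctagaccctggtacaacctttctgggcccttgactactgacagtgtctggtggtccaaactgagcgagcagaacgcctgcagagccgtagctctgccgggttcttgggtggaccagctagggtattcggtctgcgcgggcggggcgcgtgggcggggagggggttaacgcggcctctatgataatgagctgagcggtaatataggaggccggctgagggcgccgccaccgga
Sema5a: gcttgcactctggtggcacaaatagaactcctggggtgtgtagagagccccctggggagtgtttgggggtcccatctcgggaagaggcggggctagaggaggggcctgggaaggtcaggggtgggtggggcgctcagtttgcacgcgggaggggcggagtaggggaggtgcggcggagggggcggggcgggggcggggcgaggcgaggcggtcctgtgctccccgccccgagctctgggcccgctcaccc
Sema5b: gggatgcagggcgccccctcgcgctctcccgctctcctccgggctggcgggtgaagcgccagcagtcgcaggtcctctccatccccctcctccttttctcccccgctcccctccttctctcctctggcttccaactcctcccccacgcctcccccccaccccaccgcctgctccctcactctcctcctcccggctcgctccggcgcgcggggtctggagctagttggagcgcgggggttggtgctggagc
Only the Sema3a window of these 4 held CANNTG, once, and 66.2% of all 32841 windows, each cut to the same upstream bases, held it. TAATTA, a homeodomain core that is also its own reverse complement, was in none of the 4 and in 4.84% of all windows. GC content was 40.8% before Sema3a, 62.8% before Plxna2 and 72% before both Sema5a and Sema5b, against a median of 52.4% over all windows. Windows were found for 41 of the 46 members.

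Sema3c, a secreted class 3 semaphorin that can attract as well as repel, was high in CCK basket cells. Its replicates were at 181 and 163 CPM there and at 34.9 and 71.2 CPM in interneuron-selective, 31.8 and 25.9 CPM in upper chandelier and 7.56 and 46.0 CPM in Martinotti cells. In deep chandelier cells they were at 185 and 19.7 CPM, in PV basket cells at 7.22 and 8.73 CPM and in long-projecting cells at 9.92, 5.86, 9.80 and 3.94 CPM. Deep chandelier animal 11 lay above both CCK basket replicates and animal 12 far below them, and the long-projecting and PV basket values lay at the low end. The log2 difference was 2.87 ± 0.54 in CCK basket cells (adjusted p = 0.00613), which did not pass without CCK basket animal 5 (adjusted p = 0.0526). In long-projecting cells it was -2.46 ± 0.60 (adjusted p = 0.0144), which did not pass without long-projecting animal 16 (adjusted p = 0.0609) or without long-projecting animal 18 (adjusted p = 0.0628). The call in deep chandelier cells (2.20 ± 0.57, adjusted p = 0.0159) rested on animal 11, and without it the difference was -0.27 (adjusted p = 0.917).

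Class 6 semaphorins are transmembrane ligands of class A plexins. Sema6d was at 47.3, 39.3, 28.4 and 35.4 CPM in long-projecting and 51.7 and 23.4 CPM in Martinotti cells, and at 0.314 and 0.419 CPM in CCK basket cells. The remaining types spread over 1.85 to 67.5 CPM, and the interneuron-selective replicates lay far apart (2.49 and 67.5 CPM). CCK basket cells had the lowest values of all, and the log2 difference there was -5.60 ± 1.33 (adjusted p = 0.0221), which did not pass without CCK basket animal 5 (adjusted p = 0.160), without CCK basket animal 6 (adjusted p = 0.137) or without deep chandelier library 1 (adjusted p = 0.0507). In long-projecting cells it was 2.11 ± 0.59 (adjusted p = 0.0280), which passed in 36 of 46 leave-one-out fits, with an adjusted p of up to 0.0968 without long-projecting animal 15. Sema6b was at 18.5, 12.8, 16.7 and 5.78 CPM in long-projecting cells and at 13.7 to 121 CPM elsewhere (log2 difference -1.46 ± 0.42, adjusted p = 0.0346), and the call passed in 27 of 46 leave-one-out fits, with an adjusted p of up to 0.275 without Martinotti library 4. The groups overlapped, since deep chandelier animal 11 and 1 PV basket replicate fell within the long-projecting range.

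Sema6a was higher in the types defined by Vip-Flp as 1 group. Its replicates were at 236 and 42.7 CPM in interneuron-selective and 148 and 57.6 CPM in CCK basket cells, while the other 5 types held 2.96 to 86.5 CPM. The ranges overlapped, because Martinotti animal 1 reached 86.5 CPM. Both types together exceeded the other 5 by 2.58 ± 0.59 on the log2 scale (adjusted p = 0.0129), which did not pass without interneuron-selective animal 3 (adjusted p = 0.120) or without CCK basket animal 5 (adjusted p = 0.0739). Within interneuron-selective cells the libraries ran from 2.49 to 303 CPM, and in CCK basket cells library 1 stood at 199 CPM with the others at 46.1 to 69.5 CPM.

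The semaphorins of classes 4 and 7, and Sema3b, Sema3d and Sema3e of class 3, did not pass the joint test. Among class 3, Sema3d was at 4.23 to 25.5 CPM and Sema3e, which signals through Plxnd1, at 9.31 to 53.3 CPM over all 16 replicates. Sema3b had few counts, at 0 to 7.67 CPM, and its call in long-projecting cells (adjusted p = 0.0300) passed in 40 of 46 leave-one-out fits, with an adjusted p of up to 0.145 without long-projecting animal 18, and did not pass with DESeq2 (adjusted p = 0.107). Class 4 semaphorins, transmembrane ligands of class B plexins among others, had type means that differed by 3.08 to 20.0 times between the highest and the lowest type where both held more than 3 counts, with Sema4c at no count in deep chandelier cells, and part of the counts of Sema4f were not whole, so its level is uncertain. Sema7a, a lipid-anchored ligand of Plxnc1, was at 27.3 and 32.5 CPM in PV basket cells and at 1.48 to 8.22 CPM in long-projecting cells, with 1.66 and 28.5 CPM in interneuron-selective cells, and its adjusted p in the joint test was 0.163.

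**Figure D2:**
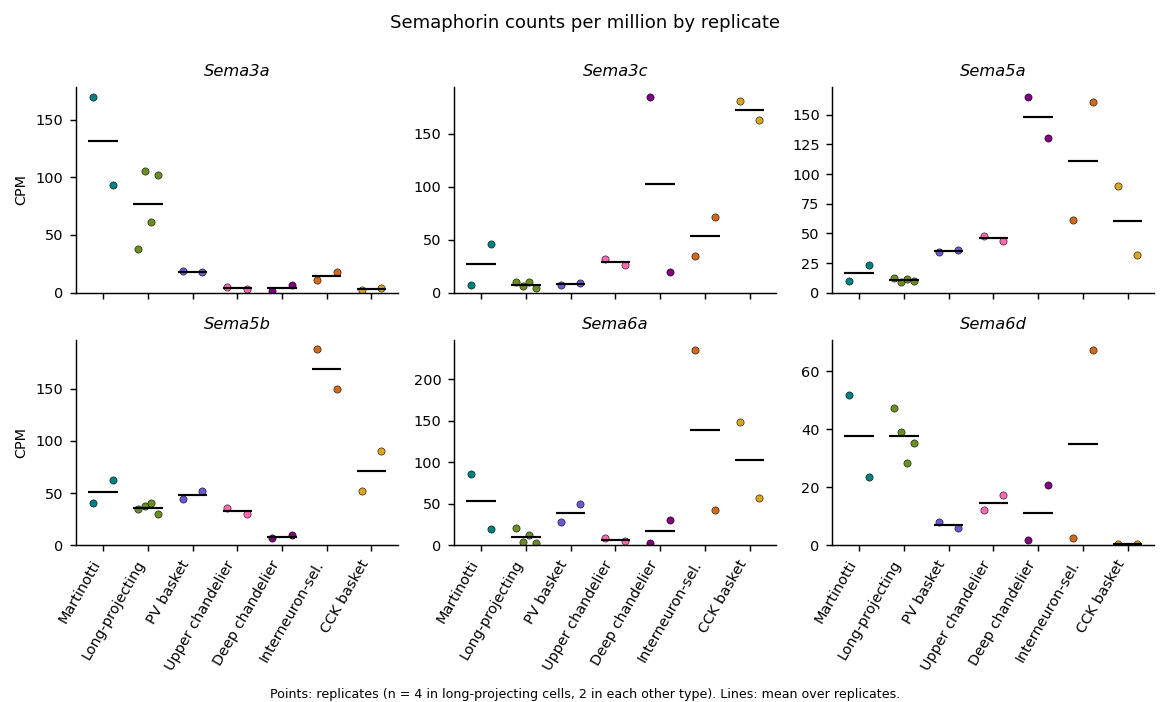
CPM (vertical axes) of 6 semaphorins by type (horizontal axes), where points are replicates and lines are means over replicates (n = 4 in long-projecting cells, n = 2 in each other type). Sema3a separates Martinotti and long-projecting cells from the others, Sema5b separates interneuron-selective cells at 149 CPM or more, and Sema3c in deep chandelier cells is split between 185 and 19.7 CPM.

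Nrp1, the ligand-binding co-receptor for Sema3a, was highest in interneuron-selective cells, but in 1 of 2 animals. Its replicates were at 19.9 and 158 CPM there, at 28.8 and 48.6 CPM in upper chandelier and at 24.4 and 3.81 CPM in deep chandelier cells. In the remaining 4 types they were at 0.172 to 7.27 CPM, with Martinotti cells at 0.172 and 2.02 CPM. Interneuron-selective animal 3 lay within the range of the chandelier types and animal 4 above all others. This gave a log2 difference of 3.68 ± 0.71 in interneuron-selective cells (adjusted p = 0.00623), which did not pass without interneuron-selective animal 4 (adjusted p = 0.509). The 4 interneuron-selective libraries held 41.4, 2.97, 223 and 68.5 CPM, and the highest, library 3, is the one rich in oligodendrocyte markers, whose part in this value was not tested beyond leaving it out. Without both libraries rich in these markers, an alternative chosen after seeing the data, the adjusted p was 0.0304. Against Martinotti cells on the shared flow cell, Nrp1 was higher in interneuron-selective cells (log2 difference of Martinotti minus interneuron-selective cells -6.44 ± 1.52, adjusted p = 0.0354), which passed in 30 of 46 leave-one-out fits, with an adjusted p of up to 0.169 without interneuron-selective animal 4, and did not pass without both oligodendrocyte-rich libraries (adjusted p = 0.0517).

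Nrp2, the neuropilin preferred by Sema3f and also used by Sema3c, was at 16.3 CPM or less in 15 of 16 replicates. It was at 4.57 and 48.8 CPM in interneuron-selective, 0.0860 and 13.1 CPM in Martinotti and 0.370 and 16.3 CPM in deep chandelier cells, and 0.419 to 8.95 CPM were found elsewhere. In each of these 3 types 1 animal was high and the other was not, and the joint test gave an adjusted p of 0.216. Part of its counts were not whole, so its level is uncertain. Both types with the highest Sema3a had Nrp1 at 0.172 to 7.27 CPM and Plxna2 at 131 to 245 CPM in their replicates.

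Class B plexins, receptors that bind mainly class 4 semaphorins, had no replicate above 35.7 CPM. Plxnb2 was at 14.2, 13.2, 31.9 and 9.11 CPM in long-projecting and 27.4 and 16.4 CPM in interneuron-selective cells, whereas the other 5 types held 0 to 5.15 CPM. Both types lay above all others without overlap. The fitted log2 difference was 2.75 ± 0.68 in long-projecting cells (adjusted p = 0.0150), which did not pass without long-projecting animal 17 (adjusted p = 0.0822), and 2.87 ± 0.82 in interneuron-selective cells (adjusted p = 0.0400), which passed in 28 of 46 leave-one-out fits, with an adjusted p of up to 0.216 without interneuron-selective animal 3, and did not pass without both oligodendrocyte-rich libraries (adjusted p = 0.0505). Plxnb1, the receptor of Sema4d, was at 35.7 and 13.7 CPM in interneuron-selective and 11.7 and 10.5 CPM in Martinotti cells and had no count in deep chandelier cells. Its mean in interneuron-selective cells was 5.33 times that of the other types (adjusted p = 0.0362), which passed in 32 of 46 leave-one-out fits, with an adjusted p of up to 0.324 without interneuron-selective library 2, and did not pass without both oligodendrocyte-rich libraries (adjusted p = 0.0844). Deep chandelier cells were at least 21.7-fold lower than the others on average against a floor of 3 counts per type (adjusted p = 0.0460), and this passed in 17 of 46 leave-one-out fits, with an adjusted p of up to 1.000 without PV basket animals 9 and 10, and did not pass without both oligodendrocyte-rich libraries (adjusted p = 0.0717).

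Among the other plexins, Plxnc1, the receptor of Sema7a, was lower in long-projecting cells, at 26.3, 11.1, 24.6 and 13.4 CPM, where the other 6 types held 30.1 to 88.8 CPM. The ranges did not overlap, and the log2 difference was -1.45 ± 0.35 (adjusted p = 0.0134), which did not pass without long-projecting animal 16 (adjusted p = 0.0621), without long-projecting animal 18 (adjusted p = 0.0606) or without deep chandelier library 3 (adjusted p = 0.0570). Plxna4, a class A plexin, was at 30.0, 30.1, 97.6 and 32.1 CPM in long-projecting cells and at 58.8 to 239 CPM elsewhere, with animal 17 inside the range of the other types. The difference was -1.33 ± 0.35 on the log2 scale (adjusted p = 0.0220), which passed in 41 of 46 leave-one-out fits, with an adjusted p of up to 0.0869 without Martinotti library 3. Long-projecting cells held more Plxna2 and Plxnb2 and less Plxnc1 and Plxna4 than the mean of the other types. Plxna1 (0.528 to 59.7 CPM) and Plxna3 (1.06 to 39.0 CPM) did not pass the joint test.

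**Figure D3:**
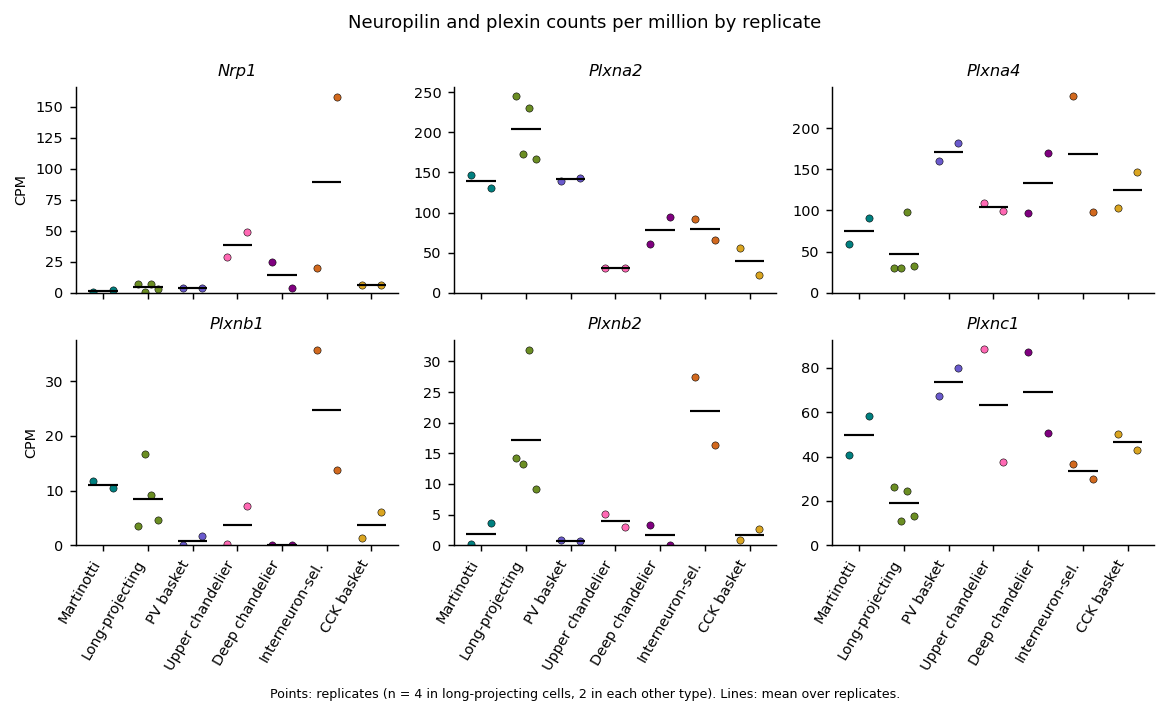
CPM (vertical axes) of Nrp1 and 5 plexins by type (horizontal axes), where points are replicates and lines are means over replicates. Long-projecting cells sit above all others for Plxna2, at 167 CPM or more, and below all others for Plxnc1, at 26.3 CPM or less.

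Epha5, a receptor of A-class ephrins, was high in both chandelier types. Replicates were at 633 and 716 CPM in upper and 517 and 687 CPM in deep chandelier cells. In the other 5 types they ran from 199.9 to 386 CPM, so the 4 chandelier replicates lay above all 12 others. The log2 difference was 1.07 ± 0.19 in deep chandelier cells (adjusted p = 0.00206), which passed in all 46 leave-one-out fits. In upper chandelier cells it was 0.92 ± 0.19 (adjusted p = 0.0280), which passed in 30 of 46 leave-one-out fits, with an adjusted p of up to 0.368 without upper chandelier animal 14, and did not pass without both oligodendrocyte-rich libraries (adjusted p = 0.253). Each chandelier type counts among the other 6 in the test of the other one.

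Epha3 and Epha7, which also bind A-class ephrins, were higher in the types defined by Vip-Flp as 1 group. In interneuron-selective cells alone neither was called (adjusted p = 0.0777 for Epha3 and 0.113 for Epha7). Epha3 was at 233 and 108 CPM in interneuron-selective and 187 and 161 CPM in CCK basket cells, and at 27.4 to 109 CPM in Martinotti, chandelier and long-projecting cells. PV basket cells were lowest, at 9.01 and 27.2 CPM, although deep chandelier animal 11 reached down to 27.4 CPM. Interneuron-selective animal 4, at 108 CPM, overlapped deep chandelier animal 12, at 109 CPM. On the log2 scale the difference was 1.65 ± 0.42 in CCK basket cells (adjusted p = 0.0308), which passed in 39 of 46 leave-one-out fits, with an adjusted p of up to 0.189 without CCK basket animal 5, and -2.28 ± 0.58 in PV basket cells (adjusted p = 0.0438), which passed in 23 of 46 leave-one-out fits, with an adjusted p of up to 0.487 without PV basket animals 7 and 8.

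Epha7 was at 122 and 82.6 CPM in interneuron-selective, 115 and 103 CPM in CCK basket and 83.5 and 68.3 CPM in PV basket cells. The other 4 types held 3.74 to 56.3 CPM, so these 3 types lay above them. In CCK basket cells the log2 difference was 1.73 ± 0.47 (adjusted p = 0.0438), which passed in 25 of 46 leave-one-out fits, with an adjusted p of up to 0.211 without CCK basket animal 5, and did not pass without both oligodendrocyte-rich libraries (adjusted p = 0.0539). Part of the counts of Epha7 were not whole, so its level is uncertain to that extent. The 2 types defined by Vip-Flp arise in the caudal ganglionic eminence and the other 5 in the medial one which is background and not on the labels. Between these lineages the log2 difference was 1.77 ± 0.35 for Epha3 (adjusted p = 0.00527) and 1.82 ± 0.39 for Epha7 (adjusted p = 0.00938), and both calls passed in all 46 leave-one-out fits.

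Epha1 and Epha8 were highest in interneuron-selective cells. Epha1 was at 13.3 and 25.3 CPM there and at 0 to 7.26 CPM elsewhere, without overlap, and long-projecting cells came next at 5.64, 3.69, 4.11 and 7.26 CPM. This gave a log2 difference of 4.05 ± 0.89 (adjusted p = 0.0125), which did not pass without interneuron-selective animal 4 (adjusted p = 0.138) or without interneuron-selective library 1 (adjusted p = 0.0511). Epha8 was at 32.4 and 7.39 CPM in interneuron-selective cells and at 0 to 2.35 CPM elsewhere, and Martinotti, upper chandelier and long-projecting cells had no count. Its mean was 49.2 times that of the other types (adjusted p = 0.0140), which did not pass without interneuron-selective animal 3 (adjusted p = 0.120) or without interneuron-selective library 2 (adjusted p = 0.0917), nor with DESeq2 (adjusted p = 0.0933). Interneuron-selective library 2 alone held 58.0 CPM of Epha8 and the other 3 held 0 to 11.0 CPM.

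Among B-class Eph receptors, which bind transmembrane ephrins, Ephb2 was high in CCK basket cells, at 138 and 67.0 CPM. Martinotti cells followed at 65.2 and 49.2 CPM, and the other 5 types held 3.39 to 37.0 CPM. CCK basket animal 6 was close to Martinotti animal 1 and animal 5 far above it. The log2 difference was 2.34 ± 0.44 (adjusted p = 0.00548), which did not pass without CCK basket animal 5 (adjusted p = 0.153). Ephb1 was at 45.7, 21.3, 12.0 and 12.8 CPM in long-projecting cells against 2.22 to 22.9 CPM elsewhere, with overlap (log2 difference 1.63 ± 0.48, adjusted p = 0.0389), and this call passed in 26 of 46 leave-one-out fits, with an adjusted p of up to 0.292 without long-projecting animal 15, and did not pass without both oligodendrocyte-rich libraries (adjusted p = 0.0538). Ephb3, Ephb4, Ephb6, a kinase-inactive member, and Epha10 did not pass the joint test.

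Of the ephrins, Efna2, a lipid-anchored ligand of EphA receptors, was low in deep chandelier cells, at 1.11 and 2.12 CPM. The other replicates held 8.37 to 76.5 CPM, with the highest in interneuron-selective animal 4. The log2 difference in deep chandelier cells was -3.40 ± 0.82 (adjusted p = 0.0114), which did not pass without deep chandelier animal 11 (adjusted p = 0.0770). In interneuron-selective cells (18.3 and 76.5 CPM) it was 1.83 ± 0.53 (adjusted p = 0.0425), which passed in 26 of 46 leave-one-out fits, with an adjusted p of up to 0.903 without interneuron-selective animal 4, and did not pass with no filter on low counts (adjusted p = 0.0549) or without both oligodendrocyte-rich libraries (adjusted p = 0.468). Without those libraries the log2 difference of Efna2 there was 0.67, and interneuron-selective library 3, one of them, held 114 CPM. Efnb1, a transmembrane ligand of EphB receptors, had no count in deep chandelier cells, which puts them at least 44.0-fold below the mean of the other types against a floor of 3 counts per type (adjusted p = 0.0268), and this did not pass without deep chandelier animal 11 (adjusted p = 0.105) or without deep chandelier animal 12 (adjusted p = 0.120). Its other replicates ran from 1.21 to 65.6 CPM, and in Martinotti, interneuron-selective and CCK basket cells 1 animal was at 36.4 CPM or more and the other at 9.50 CPM or less. Efnb3, a transmembrane ephrin, was at 23.0 and 8.88 CPM in Martinotti and 69.8 and 110.3 CPM in interneuron-selective cells (log2 difference on the shared flow cell -2.33 ± 0.56, adjusted p = 0.0388), which passed in 28 of 46 leave-one-out fits, with an adjusted p of up to 0.178 without Martinotti animal 2, and did not pass with no filter on low counts (adjusted p = 0.0551) or without both oligodendrocyte-rich libraries (adjusted p = 0.0589).

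**Figure D4:**
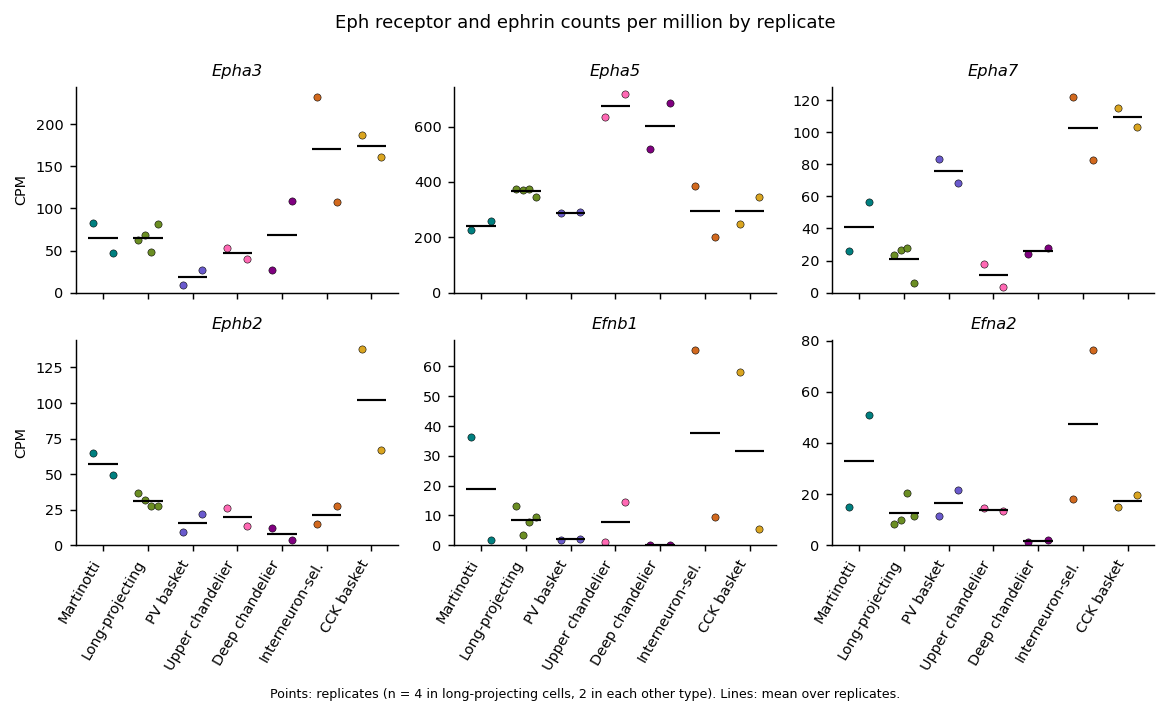
CPM (vertical axes) of 4 Eph receptors and 2 ephrins by type (horizontal axes), where points are replicates and lines are means over replicates. Epha5 is at 517 CPM or more in all 4 chandelier replicates, and Efnb1 is listed at 0 in both deep chandelier replicates.

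The lineage comparison called 11 members, 9 higher in the caudal types and 2 lower, where 10.4% of all genes were called (5.68% higher and 4.73% lower), and the median log2 difference was 0.60 in members and -0.03 in all genes. Besides Sema6a, Epha3 and Epha7, described above, Sema3c was higher by 2.09 ± 0.48 (adjusted p = 0.0131), which did not pass without interneuron-selective animal 4 (adjusted p = 0.0723). Sema5b was higher by 1.78 ± 0.24 (adjusted p = 0.000305), which passed in all 46 leave-one-out fits. Its CCK basket replicates, at 51.7 and 90.2 CPM, overlapped those of Martinotti (40.4 and 62.5 CPM) and PV basket cells (44.1 and 52.0 CPM). Efnb1 was 4.65 times higher by mean CPM (adjusted p = 0.0149), which did not pass without interneuron-selective animal 3 (adjusted p = 0.0994), without CCK basket animal 5 (adjusted p = 0.139) or without interneuron-selective library 2 (adjusted p = 0.0965), and Epha8 42.2 times (adjusted p = 0.0280), which passed in 39 of 46 leave-one-out fits, with an adjusted p of up to 1.000 without CCK basket animal 5, and did not pass with DESeq2 (adjusted p = 0.0851). Of the remaining higher members, Sema5a (log2 difference 1.23 ± 0.32, adjusted p = 0.0254) passed in 35 of 46 leave-one-out fits, with an adjusted p of up to 0.217 without CCK basket animal 5, and Sema6b (log2 difference 1.33 ± 0.37, adjusted p = 0.0335) passed in 30 of 46 leave-one-out fits, with an adjusted p of up to 0.257 without interneuron-selective animal 4. The lower members were Plxna2 (log2 difference -0.92 ± 0.25, adjusted p = 0.0294), which passed in 30 of 46 leave-one-out fits, with an adjusted p of up to 0.304 without deep chandelier library 3, and Sema3a (-1.59 ± 0.48, adjusted p = 0.0498), which passed in 6 of 46 leave-one-out fits, with an adjusted p of up to 0.176 without CCK basket animal 5, and did not pass with DESeq2 size factors in edgeR (adjusted p = 0.0528), with no filter on low counts (adjusted p = 0.0522) or without both oligodendrocyte-rich libraries (adjusted p = 0.0539). Sema3a was at 1.11 to 6.77 CPM in the chandelier types, within or near the range of the caudal types. The highest type mean of Sema5a, with replicates at 165 and 131 CPM, was in deep chandelier cells, a medial type.

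The comparisons within a flow cell called 4 members in 1 pair of types and 3 in the other. Between Martinotti and interneuron-selective cells, 4 members passed, Sema3a higher in Martinotti cells and Nrp1, Sema5a and Efnb3 lower, where 3.09% of all genes were called (1.68% higher and 1.41% lower). The median log2 difference was -0.65 in members and 0.00 in all genes. For Sema5a the log2 difference was -2.68 ± 0.62 (adjusted p = 0.0335), which passed in 30 of 46 leave-one-out fits, with an adjusted p of up to 0.193 without interneuron-selective animal 4. Between upper chandelier and long-projecting cells, 3 members passed, Sema5a higher in upper chandelier cells and Sema3a and Plxna2 lower, where 4.08% of all genes were called (2.06% higher and 2.02% lower). The median log2 difference was -0.52 in members and -0.03 in all genes. Sema5a differed by 1.95 ± 0.49 on the log2 scale (adjusted p = 0.0379), which passed in 28 of 46 leave-one-out fits, with an adjusted p of up to 0.226 without upper chandelier animal 13. The upper chandelier mice were female and the long-projecting mice male and younger, whereas both types of the first pair came from females of similar age.

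Several members had 1 library far above the rest. Cells of 1 library differed by little more than sampling noise over all genes. The cell values below therefore describe the library and are no separate support. Sema4d was at 303 CPM in deep chandelier library 4 and at 0 to 7.92 CPM in the other 3 libraries of that type, and the 8 cells of library 4 lay between 205 and 347 CPM. Epha4, a receptor of both ephrin classes, was at 372 CPM in that library (cells at 314 to 443 CPM) and at 0.715 to 40.6 CPM in the others. Plxnd1, the receptor of Sema3e, had 66.4 CPM there and no count in the others, and 7 of the 8 cells carried it. This is the library with 1918 CPM of Vip, and the part of that in these values was not tested. Sema4c was at 105 CPM in Martinotti library 4 and at 0 to 0.963 CPM in the other 3, with counts in 13 of its 15 cells, and CCK basket library 1 held 25.6 CPM. Plxnb3, a receptor of Sema5a, was at 29.3 CPM in interneuron-selective library 3, which is rich in oligodendrocyte markers, and 23.5 CPM in Martinotti library 4. Martinotti library 4 held 264 CPM of these markers, the most of its type. Plxnb3 was at 1.11 CPM or less in every other library, and the part of these markers in its values was not tested. Its calls in interneuron-selective cells (adjusted p = 0.0111) and Martinotti cells (adjusted p = 0.0202) were both lost without the animal of that library (adjusted p = 1 without animal 4 and 0.577 without animal 2), and in interneuron-selective cells its fitted direction then turned.

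**Figure D5:**
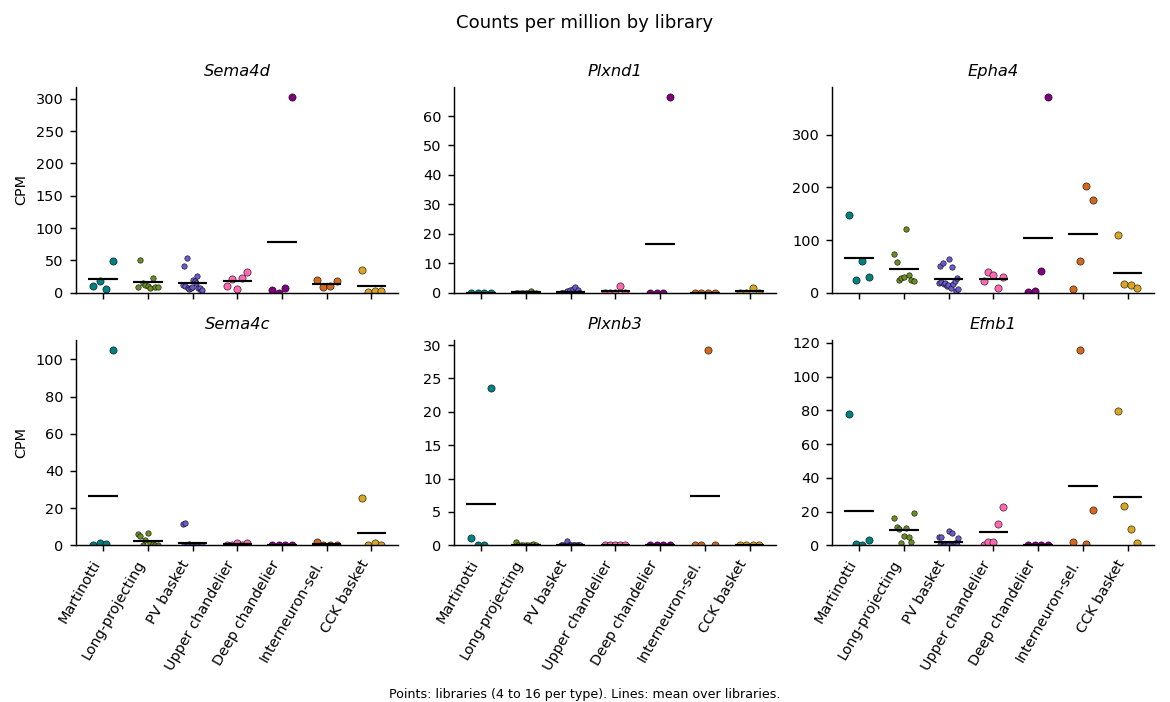
CPM (vertical axes) of 6 members by type (horizontal axes), where points are the 4 to 16 libraries of a type and lines are means over libraries. One deep chandelier library stands at 303, 66.4 and 372 CPM for Sema4d, Plxnd1 and Epha4, and Efnb1 is spread from library to library in Martinotti, interneuron-selective and CCK basket cells.

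Leaving out the deep chandelier library with Vip moved the number of called members in deep chandelier cells from 7 to 9 (4 higher and 5 lower), and in interneuron-selective cells from 9 to 10. The calls lost were Epha3 in CCK basket (adjusted p = 0.0667) and PV basket cells (adjusted p = 0.0660), Plxna2 in CCK basket cells (adjusted p = 0.0659) and Epha5 in upper chandelier cells (adjusted p = 0.0520). Plxnb1 in deep chandelier cells (adjusted p = 0.0551), Ephb1 and Sema6b in long-projecting cells (adjusted p = 0.0650 and adjusted p = 0.0889) and Sema3a between the lineages (adjusted p = 0.0598) were lost as well. Without both libraries rich in oligodendrocyte markers, 14 members passed the joint test, and 8 were called in interneuron-selective and 11 in long-projecting cells. Shares over all genes are not given for the fits of this paragraph, so the counts do not set members against all genes.

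Among members with a mean of at least 50 CPM over the 7 type means, Epha4, Efna5, Epha6 and Plxna4 had the largest p in the joint test. Epha4 ranged over 2.22 to 191 CPM (adjusted p = 0.614). Epha6 was at 106 to 566 CPM (adjusted p = 0.155) and Plxna4 at 30.0 to 239 CPM (adjusted p = 0.0701). Efna5, a lipid-anchored ephrin, was at 311 and 314 CPM in Martinotti and 318, 369.6, 185 and 353 CPM in long-projecting cells, and deep chandelier cells had 90.6 and 13.3 CPM (adjusted p = 0.160 in the joint test). Plxna4 was called in the joint test with DESeq2 (adjusted p = 0.00561), and its lower level in long-projecting cells passed as given above. It also passed the joint test with 18 animals as labelled (0.0175), a fit that treats nearly identical PV basket animals as separate replicates. The p values above the threshold do not show that the levels were alike, since the replicates of 1 type differed by wide margins. Part of the counts of Epha10 were not whole, so its level is uncertain as well.

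Partners of the pathway (co-receptors, transducers and effectors, 62 listed) were examined as a list. Of these 58 were tested, and 24 passed the joint test for a difference between types, where 25.0% of all genes did. Against the mean of the other types, long-projecting cells had 5 higher and 8 lower, where 9.71% of all genes were called higher and 3.40% lower. Deep chandelier cells had 10 higher and 5 lower (12.3% and 6.79% of all genes), interneuron-selective cells 7 higher and 2 lower (5.73% and 4.29%) and Martinotti cells 5 higher and 3 lower (3.91% and 1.69%). CCK basket cells had 5 higher and 1 lower (5.22% and 1.08%), upper chandelier cells 2 higher and 0 lower (1.56% and 0.341%) and PV basket cells 1 higher and 1 lower (2.78% and 1.11%). Tiam1, a Rac exchange factor that acts downstream of EphA and EphB receptors, had type means between 1198 CPM in interneuron-selective and 66.2 CPM in long-projecting cells (adjusted p = 0.000238). Cfl1, the actin-severing cofilin, lay between 394 CPM in long-projecting and 46.9 CPM in deep chandelier cells (adjusted p = 0.000366), and Ptpro, a phosphatase that acts on Eph receptors, between 136 CPM in deep chandelier and 4.86 CPM in Martinotti cells (adjusted p = 0.000664). L1cam, an adhesion molecule that associates with Nrp1, lay between 138 CPM in interneuron-selective and 21.1 CPM in deep chandelier cells (adjusted p = 0.000820). Pick1, a PDZ protein that binds ephrins and Eph receptors, lay between 370.4 CPM in deep chandelier and 38.5 CPM in long-projecting cells (adjusted p = 0.00414). Deep chandelier library 4, the one with Vip, held 1058 CPM of Pick1, and without it the mean of that type was 208 ± 7.36 CPM (SD, n = 2). Mical2, an actin-oxidising enzyme of the family that binds plexins, lay between 235 CPM in Martinotti and 26.9 CPM in CCK basket cells (adjusted p = 0.0357). No leave-one-out values were taken for these partners.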

How the data were processed

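RNA of single cortical GABAergic neurons was measured in 584 cells of 46 libraries. The deposited values are expected counts per gene and cell, which the authors made from reads mapped to mm9 with Bowtie 0.12.7, per the submitters' processing notes. The counter, the annotation and the use of strand were not given in the sources used here. Overlapping and antisense genes therefore cannot be told apart. Of the values above 0, 4.07% were not whole. Every column of cells was mapped to a sample through the labels.

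Counts were summed per library and per replicate, rounded to whole numbers and tested with edgeR 4.0.16 (TMM scaling, the filterByExpr filter by type, robust quasi-likelihood test, all 7 types in 1 fit of 16 replicates with 9 residual degrees of freedom). Adjusted p values are Benjamini-Hochberg values over all 15533 genes, with a threshold of 0.05, two-sided, and every adjusted p in the text is from edgeR unless another tool is named. The labels give separate animals but not separate cultures or days, and the p values measure the spread between these samples. Replicates varied with a common dispersion of 0.381, or 61.7% as a coefficient of variation. CPM is the counts of a gene per 1000000 counts of the sum. Libraries were amplified, and floors of 3 counts cover counting error only.

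The members and lists were chosen with earlier results of these data known. Genes given with values were, for each type, up to 4 higher and up to 3 lower called members with the largest log2 difference at a mean of at least 10 CPM, up to 4 in each direction in the other comparisons, both neuropilins, and the 4 members with the largest joint p at a mean of at least 50 CPM. Other members, those high in a single library and the 4 promoters with both motifs were chosen after their values were seen. Merging the PV basket animals was known from earlier work on these data. The script was tested on simulated counts with known changes. Alternatives were DESeq2 1.42.0, its size factors in edgeR, no filter on low counts, 18 animals as labelled, sums per library with a replicate block, each replicate and library left out, and, added after seeing the data, the fit without both libraries rich in oligodendrocyte markers.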

Additional observations from a re-analysis of the deposited data

Results flagged for a closer look

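In groups of 4 to 10 libraries of 1 type, 122 sets of values with a type mean of at least 10 CPM were searched for a library standing far from the others (Dixon's test at 95%), and 19 were found, 17 high and 2 low. For normally distributed values chance gives about 1 in 20 groups. The flags lay mostly on the high side, so that rate need not hold for these CPM values. Without the limit on the mean, 169 sets gave 38, 36 high and 2 low. The limit was set, and Sema4d, Sema4c, Plxnd1 and Plxnb3 were added to the search, after values had been seen. The 16 PV basket libraries were too many for the test.

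CCK basket library 1 was the highest of its type in 5 members, at 126 CPM of Sema5a (the next library at 35.1 CPM), 199 CPM of Sema6a (69.5 CPM), 109 CPM of Epha4 (15.6 CPM), 385 CPM of Efna5 (76.4 CPM) and 35.0 CPM of Sema4d (3.01 CPM). Deep chandelier library 4, the one with Vip, was the highest in 4 members, at 73.6 CPM of Sema6a (5.00 CPM), 372 CPM of Epha4 (40.6 CPM), 303 CPM of Sema4d (7.92 CPM) and 66.4 CPM of Plxnd1 (no count in the others). Deep chandelier library 2 had 48.3 CPM of Nrp1 against 4.13 CPM in the next, and the lowest Epha5, at 334 CPM against 651 CPM.

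Upper chandelier library 1, which also held Vip, had 39.5 CPM of Epha7 against 9.40 CPM in the next, and library 3 of that type had the lowest Efna2, at 2.18 CPM against 13.3 CPM. In Martinotti cells, library 1 had 77.7 CPM of Efnb1 (2.94 CPM in the next), library 3 had 98.2 CPM of Efna2 (16.3 CPM) and library 4 had 105 CPM of Sema4c (0.963 CPM). In long-projecting cells, library 6 had 47.3 CPM of Plxnb2 (17.1 CPM) and 122 CPM of Plxna4 (67.3 CPM), and library 2, rich in oligodendrocyte markers, had 51.2 CPM of Sema4d (23.4 CPM).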

How the results depend on the processing

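The share over all genes is given above for the main fit only. The numbers in the other fits show how the calls moved and not whether members stand out from all genes. In the main fit the numbers of called members were 18 (any type), 2 (Martinotti), 9 (interneuron-selective), 6 (CCK basket), 1 (PV basket), 2 (upper chandelier), 7 (deep chandelier), 11 (long-projecting), 11 (the lineages), 4 (Martinotti against interneuron-selective) and 3 (upper chandelier against long-projecting). Over the 46 fits that leave out 1 replicate or library they ranged over 9 to 21 (any type), 1 to 8 (Martinotti), 3 to 16 (interneuron-selective), 1 to 9 (CCK basket), 0 to 3 (PV basket), 0 to 3 (upper chandelier), 6 to 10 (deep chandelier), 4 to 13 (long-projecting), 5 to 16 (the lineages), 0 to 5 (Martinotti against interneuron-selective) and 1 to 4 (upper chandelier against long-projecting). DESeq2 called 26 (any type), 6 (Martinotti), 13 (interneuron-selective), 9 (CCK basket), 3 (PV basket), 5 (upper chandelier), 12 (deep chandelier), 12 (long-projecting), 16 (the lineages), 7 (Martinotti against interneuron-selective) and 6 (upper chandelier against long-projecting), with a test of its own. With 18 animals as labelled they were 26 (any type), 7 (Martinotti), 15 (interneuron-selective), 10 (CCK basket), 6 (PV basket), 3 (upper chandelier), 11 (deep chandelier), 13 (long-projecting), 16 (the lineages), 5 (Martinotti against interneuron-selective) and 4 (upper chandelier against long-projecting). Without both libraries rich in oligodendrocyte markers they were 14 (any type), 1 (Martinotti), 8 (interneuron-selective), 4 (CCK basket), 1 (PV basket), 1 (upper chandelier), 7 (deep chandelier), 11 (long-projecting), 11 (the lineages), 3 (Martinotti against interneuron-selective) and 3 (upper chandelier against long-projecting). With DESeq2 size factors they were 19 (any type), 2 (Martinotti), 11 (interneuron-selective), 7 (CCK basket), 1 (PV basket), 2 (upper chandelier), 9 (deep chandelier), 11 (long-projecting), 11 (the lineages), 4 (Martinotti against interneuron-selective) and 3 (upper chandelier against long-projecting), and with no filter on low counts 20 (any type), 3 (Martinotti), 8 (interneuron-selective), 5 (CCK basket), 1 (PV basket), 2 (upper chandelier), 8 (deep chandelier), 11 (long-projecting), 10 (the lineages), 3 (Martinotti against interneuron-selective) and 3 (upper chandelier against long-projecting). The cause of these shifts was not tested. The fit with 18 animals as labelled treats the merged PV basket animals as separate replicates, although their libraries agreed nearly within sampling noise.

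In sums per library with a replicate block on the library number they were 25 (any type), 2 (Martinotti), 9 (interneuron-selective), 6 (CCK basket), 5 (PV basket), 4 (upper chandelier), 11 (deep chandelier), 11 (long-projecting), 12 (the lineages), 6 (Martinotti against interneuron-selective) and 5 (upper chandelier against long-projecting). The numbers only count libraries within a type, and same-numbered libraries of 2 types did not deviate together (median correlation -0.0019 over 91 pairs, from -0.0542 to 0.0360, against 0.00038 over 754 other pairs), so no pairing is claimed. In this block fit the calls of Plxna2 in upper chandelier (adjusted p = 0.0517) and CCK basket cells (0.153) and between the lineages (0.110), Epha7 in CCK basket cells (0.0820), Plxnb1 in deep chandelier cells (1), Sema3b (0.0570) and Sema6b (0.0652) in long-projecting cells, Sema6b between the lineages (0.0822) and Epha1 in the joint test (0.0551) ended, and Plxna4 (0.00097), Efna5 (0.0042) and Epha6 (0.0456) passed the joint test. The fit has 24 residual degrees of freedom and treats libraries of 1 animal as replicates.

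Of the single results followed (79), the leave-one-out fits left 3011 values on the same side of the threshold. They ended the call in 607 values, gave a call in 8 and turned the direction in 2. The turned values are Sema3c in deep chandelier cells without animal 11 (log2 difference -0.27, adjusted p = 0.917, in a range of -0.27 to 3.08) and Plxnb3 in interneuron-selective cells without animal 4 (log2 difference -1.95, adjusted p = 1.000, in a range of -1.95 to 7.34). With 2 animals in 6 of 7 types, a call often ends when 1 is left out, and a member that misses the threshold is not shown to be alike between types.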
